A study of Mus musculus with 4 samples.

Results

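The p200 gene cluster is the stretch of mouse chromosome 1 that holds Aim2 and the Ifi200 genes, here chr1:173380000-174150000 in GRCm38 (mm10), 0.77 Mb long. The 6 genes followed by name were Aim2, Ifi202b, Ifi203, Ifi204, Ifi205 and Mndal. Its members here are every deposited H3K4me3 or H3K27ac region with a midpoint in this stretch and every H3K27ac region that the authors' annotation named for 1 of those 6 genes. There were 8 such regions among the 31315 of the 4 lists, and no H3K27ac region outside the stretch was named for any of the 6 genes.

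The regions came from ChIP-Seq of embryonic stem (ES) cells, the pluripotent cells of the early embryo, derived from C57BL/6 (B6) mice and from non-obese diabetic (NOD) mice, a strain that develops autoimmune diabetes. All cells were grown in 2i, a medium with inhibitors of the kinases MEK and GSK3. H3K4me3 (trimethylated lysine on histone H3) marks promoters, and H3K27ac (acetylated lysine on histone H3) marks active promoters and enhancers. Each strain and mark had 1 library, so 4 libraries in all, and each list holds the regions of 1 strain that were called against the other strain's library. A region is therefore called B6-enriched or NOD-enriched here. A mark that both strains carry to a like degree, or with a difference below the calling limits, is in neither list. Absence from the lists says nothing about whether a gene is marked. The labels do not say how many ES cell lines were used. With no replicates, no difference between the strains could be tested, strain and library cannot be told apart, and the intervals given below cover counting error only. The share of cells that carry a mark and the amount of mark per cell cannot be told apart either.

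The p200 genes, also called PYHIN genes, encode proteins with a HIN domain that binds DNA and, in most members, a pyrin domain that joins other pyrin proteins. AIM2 senses DNA in the cytosol and assembles an inflammasome through the adaptor ASC, which activates caspase-1. Ifi202b encodes a HIN protein without a pyrin domain that can hold AIM2 in check, and Ifi204 encodes a sensor that has been tied to STING signalling. Ifi203, Ifi205 and Mndal encode largely nuclear members of the family. Many p200 genes are induced by interferons, and the mouse cluster has grown by tandem duplication, so that its genes share long stretches of sequence.

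The sequences that the results turn on are shown first. They were read from the reference genome, which is of B6 origin, and the NOD sequence was not analysed here. For Aim2 these are the 250 bases before its curated start site with CpG dinucleotides in capitals, the central 300 bases of the B6-enriched H3K27ac region upstream of it, a 60-base stretch of the same region, and its B6-enriched intronic H3K27ac region with CpG dinucleotides in capitals. In both pieces of the upstream region, capitals mark a match to a motif of interferon signalling, either the gamma-activated site TTCNNNGAA (GAS), which STAT factors bind, or the core of the interferon-stimulated response element (ISRE core), taken as GAAA, any 2 bases and GAAA. The motifs share no bases here, and either strand could match.
Aim2 promoter, chr1:173420354-173420603, plus strand: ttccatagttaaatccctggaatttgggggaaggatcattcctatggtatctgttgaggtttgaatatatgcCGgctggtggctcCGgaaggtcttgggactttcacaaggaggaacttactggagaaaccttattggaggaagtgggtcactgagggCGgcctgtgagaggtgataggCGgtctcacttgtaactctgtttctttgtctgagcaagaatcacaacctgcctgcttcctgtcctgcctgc
Aim2 upstream region, centre, chr1:173418725-173419024, plus strand: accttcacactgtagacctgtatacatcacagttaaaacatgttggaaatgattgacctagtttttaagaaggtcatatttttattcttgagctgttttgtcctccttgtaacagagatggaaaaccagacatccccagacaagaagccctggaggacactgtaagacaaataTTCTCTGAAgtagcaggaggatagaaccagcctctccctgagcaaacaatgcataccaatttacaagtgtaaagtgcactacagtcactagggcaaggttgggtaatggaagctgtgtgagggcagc
Aim2 upstream region, ISRE core, chr1:173419239-173419298, plus strand: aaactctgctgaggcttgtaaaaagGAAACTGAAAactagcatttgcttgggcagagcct
Aim2 intron region, chr1:173437255-173437517, plus strand: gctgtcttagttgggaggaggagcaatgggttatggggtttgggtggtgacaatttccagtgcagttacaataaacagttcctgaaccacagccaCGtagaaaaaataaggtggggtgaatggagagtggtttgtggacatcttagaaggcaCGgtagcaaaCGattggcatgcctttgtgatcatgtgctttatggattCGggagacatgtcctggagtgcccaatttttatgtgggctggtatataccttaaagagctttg

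For NOD, the centre of the NOD-enriched H3K4me3 region near the end of Ifi202b is given in gene orientation, with a GAS match in capitals.
Ifi202b region, centre, chr1:173965062-173965361, minus strand: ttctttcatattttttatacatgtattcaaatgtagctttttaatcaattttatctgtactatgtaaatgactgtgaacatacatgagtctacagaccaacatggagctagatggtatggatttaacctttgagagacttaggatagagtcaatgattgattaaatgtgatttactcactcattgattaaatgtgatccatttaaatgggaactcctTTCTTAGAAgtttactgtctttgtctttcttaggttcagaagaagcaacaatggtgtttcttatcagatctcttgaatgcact

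Aim2 held both B6-enriched H3K27ac regions of the cluster, and no other p200 gene held one. The first, at chr1:173418352-173419397, was 1045 bp wide and its middle lay 1.73 kb before the curated Aim2 start site. Its peak score, the signal of B6 less that of NOD on a scale the files do not state, was 71.4. The median score of the B6 H3K27ac list was 12.8, with quartiles of 9.28 and 24.7. The region ranked 370 of 5525, and 6.68% of the listed regions scored higher. Its slope value, a column that follows the slope of the ranked scores in part, was 1.046. A value of at least 1, the limit used here for a super enhancer, was reached by 398 regions or 7.20% of the B6 list, and by 518 regions or 8.46% of the NOD list. The region is thus just inside that limit, and no other H3K27ac region of the cluster reached it.

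The authors' annotation placed the upstream Aim2 region between genes. RefSeq has 1 curated and 25 predicted Aim2 transcripts, and the region falls in introns of predicted ones that start further upstream. Another predicted transcript starts 207 bp past the end of the region. None of its bases lay in an exon of any RefSeq transcript. It held 7 CpG dinucleotides, 7.07% of its bases were repeats, and all its 32-base words occur at a single place in the genome. Of the motifs searched on both strands, it held 1 ISRE core match, GAAACTGAAA at chr1:173419264-173419273, and 1 GAS match, TTCTCTGAA at chr1:173418898-173418906. In windows of 1046 bases centred on the 335 B6-enriched H3K27ac regions of chromosome 1, 16.4% held an ISRE core match and 30.1% held a GAS match.

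The other B6-enriched region, chr1:173437255-173437517, lay in intron 2 of 8 of the curated Aim2 transcript, 16.8 kb past the start site. It was 262 bp wide, the smallest width in that list, and scored 14.5, close to the list's median. It ranked 2383 by score and 706 by score per base. All of its words were found at a single place in the genome, none of its bases were repeats, and neither motif matched. The nearest NOD-enriched H3K27ac region, chr1:173348848-173349081, lay 71.6 kb from the curated Aim2 start site. It was outside the cluster as defined here, scored 9.35 and was named by the authors' annotation for Ackr1, a chemokine receptor gene. It lay just before the start of the longest predicted Aim2 transcript.

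No H3K4me3 region was listed near Aim2 in either strain. The study reports, from genome browser tracks, that both H3K4me3 and H3K27ac were higher at Aim2 in B6 ES cells. A difference below the calling limits would not be listed, so the lists do not show that H3K4me3 at Aim2 is alike in the strains. The nearest B6-enriched H3K4me3 region was 198 kb and the nearest NOD-enriched one 191 kb from the curated start site. The Aim2 promoter sequence above held neither motif. Its 32-base words are all found at a single place in the genome.

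Mndal held the only NOD-enriched H3K27ac region of the cluster, chr1:173869591-173869824 in intron 6 of 9, 10.3 kb past the nearest start site. It was 233 bp wide, the smallest width in the NOD list, scored 12.7 and ranked 3103 of 6126. The list's median score was 12.95. The authors' annotation put it in MMERVK9C_I-int, the internal part of an endogenous retrovirus of the ERVK class. Of its 32-base words 22.2% were found at a single place in the genome, and its median word had 19 copies. Together these single-place words covered 107 of its 234 bases. On chromosome 1, 15 of the 413 NOD-enriched H3K27ac regions, or 3.63%, had fewer than 50% such words. The part that reads from other copies have in its score was not tested.

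**Figure D1:**
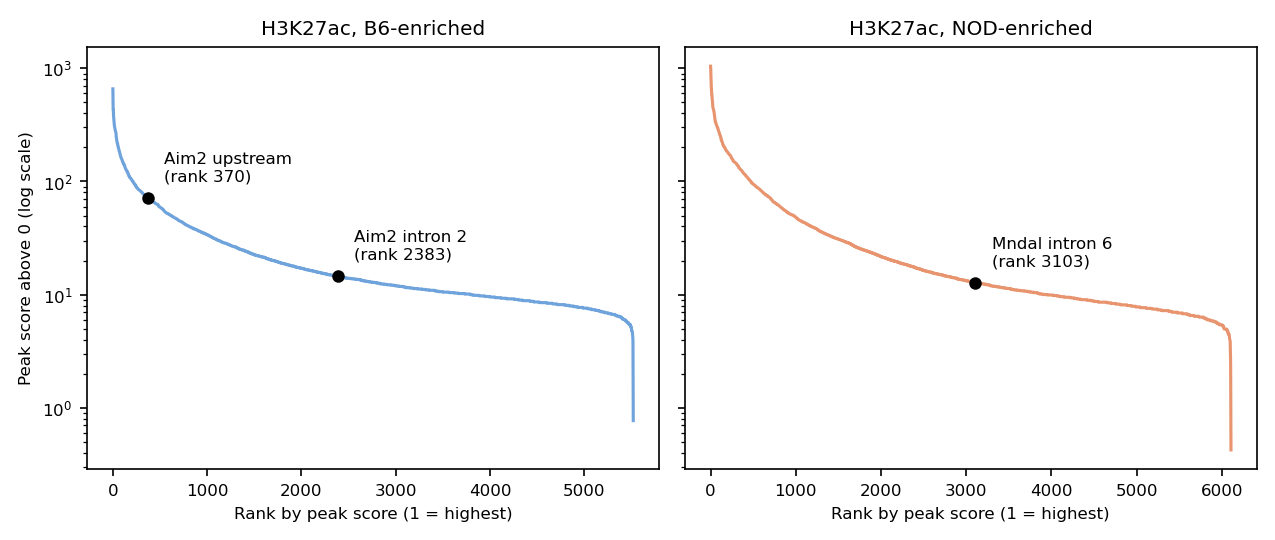
Peak score (log scale) against rank for all H3K27ac regions with scores above 0 in the B6 list (left) and NOD list (right), with the regions of the p200 cluster as black points. The upstream Aim2 region, at rank 370, stands on the steep part of the B6 curve, whereas the Aim2 intron region (rank 2383) and the Mndal region (rank 3103) stand on the flat parts.

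By H3K27ac, 2 of the 3 listed regions of the cluster were thus B6-enriched (66.7%, exact binomial 95% interval 9.43 to 99.2%), where 47.4% of all listed H3K27ac regions were. By H3K4me3 it was 1 of 5 (20%, 0.505 to 71.6%), where 38.6% of all listed regions were. Both intervals hold the share of the whole lists. Scaled to the length of the stretch, the chromosome 1 rate would give 2.09 B6-enriched and 3.20 NOD-enriched H3K4me3 regions and 1.32 B6-enriched and 1.63 NOD-enriched H3K27ac regions, against 1, 4, 2 and 1 observed. The exact Poisson interval of the observed number held the chromosome rate in each list.

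The 4 NOD-enriched H3K4me3 regions lay in the distal part of the cluster, a pair in Ifi202b and a pair among olfactory receptor genes. All H3K4me3 regions of the cluster were 500 bp wide, the size of a single unstitched peak. The region in intron 5 of 6 of Ifi202b, chr1:173964961-173965461, had 24 tags in NOD and 0 in B6. This is 10.5 normalised tags, that is tags per 10000000 of the library, in NOD (exact Poisson 95% interval 6.76 to 15.7) and at most 2.49 in B6. Its NOD level was 5.2 times the floor of 3 tags in the B6 library. With the counting error of both libraries, the exact 95% lower limit of the fold was 3.91. Each of its words was found at a single place in the genome, and it held the GAS match shown above. The region near Olfr424, described below, held the other GAS match among the H3K4me3 regions of the cluster, TTCATTGAA. In windows of 501 bases centred on the 812 NOD-enriched H3K4me3 regions of chromosome 1, 16.7% held a GAS match. The Ifi202b region had no CpG dinucleotide.

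The region in intron 1 of 6 of Ifi202b, chr1:173978522-173979022, lay 4.07 kb past the start site and had 19 tags in NOD and 0 in B6. It reached 8.35 normalised tags in NOD (5.03 to 13.0) and was 4.12 times the floor in B6, with an exact lower limit of 3.03. This was a weak member of its list, since 89.4% of the NOD-enriched H3K4me3 regions had more tags. Repeats made up 75.8% of its bases, and 67.9% of its words were found at a single place in the genome. Among p200 genes, Ifi202b alone had a listed H3K4me3 region over its body or up to 5 kb from a start site.

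The olfactory receptor pair lay beyond the last p200 gene, over 100 kb from the Ifi205 start site. The region chr1:174134015-174134515, 2.48 kb before the start of the odorant receptor gene Olfr424, had 30 tags in NOD and 0 in B6, or 13.2 normalised tags (8.90 to 18.8). This was 6.50 times the floor in B6, with an exact lower limit of 4.97. The region chr1:174145217-174145717, 6.01 kb before the pseudogene Olfr421-ps1, had 28 tags in NOD and 3 in B6. It was 6.07-fold higher in NOD, with an exact 95% interval of 1.87 to 31.2, and was the only H3K4me3 region of the cluster with tags in both strains. All words of both regions were found at a single place in the genome.

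The single B6-enriched H3K4me3 region, chr1:173841477-173841977, lay between the pseudogene Ifi203-ps and Mndal, 38.2 kb past the nearest Mndal start site and outside every RefSeq transcript. It had 21 tags in B6 and 0 in NOD, which is 14.2 normalised tags in B6 (8.79 to 21.7) and at most 1.62 in NOD. Its B6 level was 10.8 times the floor of 3 tags in the NOD library, with an exact lower limit of 8.01. Of its words 74.3% were found at a single place in the genome, and 16.6% recur within the cluster. In all, 4 of the 5 H3K4me3 regions had no tags in the other strain, a state shared by 37.7% of the whole B6 list and 34.9% of the whole NOD list of that mark. The H3K4me3 libraries held 14791364 tags (B6) and 22750449 tags (NOD), so the same number of tags is a lower level in NOD. For H3K27ac the lists hold no tag counts, and the tag totals of the libraries are unknown. The labels give only a range of 25000000 to 30000000 reads per library.

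**Figure D2:**
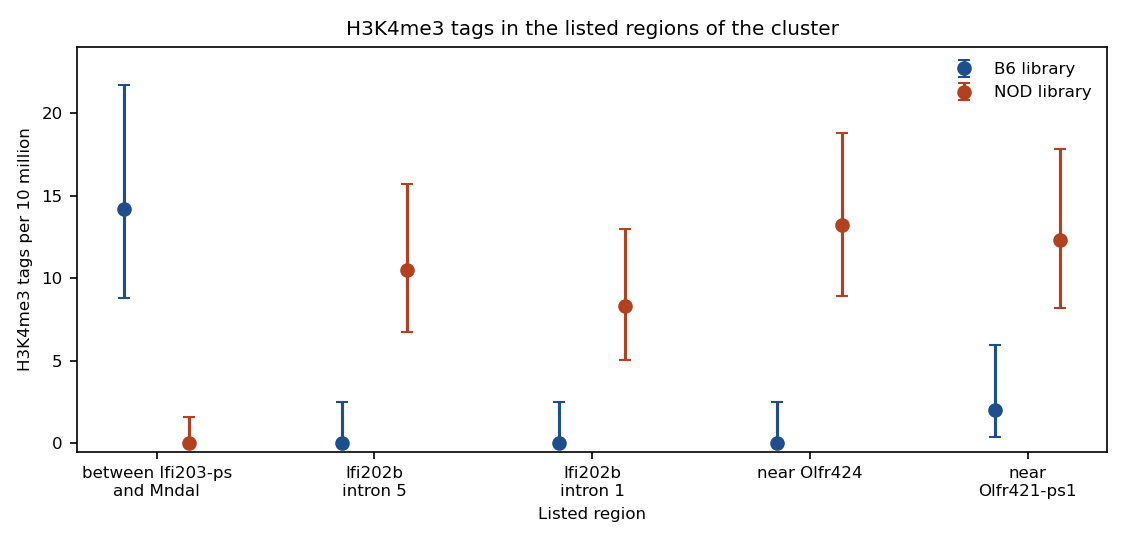
Normalised H3K4me3 tags (per 10000000) in the B6 library (blue) and the NOD library (red) for the 5 listed regions of the cluster, with exact Poisson 95% intervals that cover counting error only. The intervals of both libraries do not overlap in any of these 5 regions. The regions were called for a 4-fold difference between the libraries, so these gaps are no separate support for one. How often the intervals overlap over all listed regions was not counted. B6 had 0 tags in 3 of the 4 NOD-enriched regions.

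Ifi203, Ifi204 and Ifi205 held no listed region of either mark in their bodies or within 5 kb of a start site. The nearest listed region to Ifi203 was NOD-enriched for H3K4me3 and lay 22.5 kb from its start site. For Ifi205 the nearest region was also NOD-enriched for H3K4me3, at 53.0 kb, and for Ifi204 it was the B6-enriched H3K4me3 region at 74.8 kb. RefSeq places 13 protein-coding p200 genes and 1 p200 pseudogene in the stretch. Of the 13, 0 had a B6-enriched H3K4me3 region, 1 a NOD-enriched H3K4me3 region (Ifi202b), 1 a B6-enriched H3K27ac region (Aim2) and 2 a NOD-enriched H3K27ac region (Mndal, and Aim2 through its predicted upstream start). Among the 21787 protein-coding genes of RefSeq the shares were 16.5%, 24.4%, 14.5% and 16.5%, against 0%, 7.69%, 7.69% and 15.4% of the family. With 13 genes, 1 gene more or less moves each of these by 7.69 percentage points. Ifi206, Ifi207, Ifi208, Ifi209, Ifi211, Ifi213 and Ifi214 held no listed region.

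Part of the cluster's sequence occurs at more than 1 place in the genome, where a short read cannot be assigned to a single origin. Of the 32-base words of the stretch 65.2% were found at a single place in the genome and 26.1% recurred within the stretch itself. The shares found at a single place were 90.3% and 90.7% in the 100 kb on either side. Within the family Aim2 had the highest share, 94.8%. Ifi202b had 68.7%, Mndal 62.3%, Ifi204 56.0%, Ifi203 53.5% and Ifi205 43.6%, and the lowest was Ifi211 with 31.2%. Neither Ifi205 nor Ifi211, the lowest of these, held a listed region. Ifi207 held none either, with a share of 89.4%, next below that of Aim2. The reads were 50 bases long and the words 32, so that these shares are lower than those of whole reads. Reads of both strains were placed on the B6-derived reference, and the part that strain differences in sequence or gene copy number have in these lists was not tested.

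**Figure D3:**
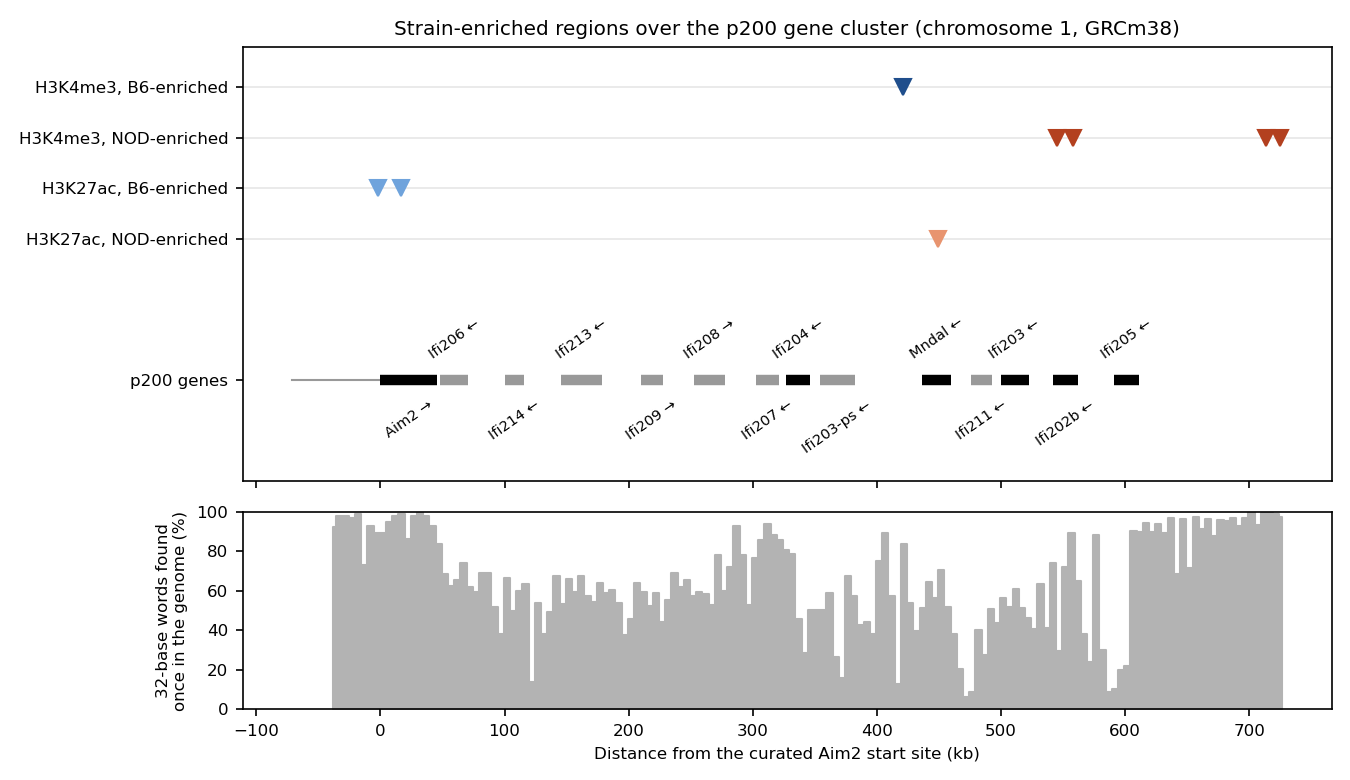
Top: positions of the 8 listed regions (triangles, by list) and of the 14 p200 genes (bars, with arrows for strand; black for the 6 followed by name, grey for the others; the thin line marks predicted upstream exons of Aim2), in kb from the curated Aim2 start site. Bottom: share of 32-base words found at a single place in the genome, in steps of 5 kb. It is high over Aim2 and past Ifi205 and lower over most of the sequence between them, with high steps around Ifi207.

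The promoters of the family shared a sequence feature that had no part in how the regions were chosen. RefSeq promoters of GRCm38, from 250 bases before to 50 bases after a start site, were at hand for 12 of the 13 protein-coding genes in 14 entries, and not for Ifi204. An ISRE core match on either strand was found in 10 of the 14 entries and in 9 of the 12 genes. Of all 32851 promoters, 3.44% held one. Before the start site there were 10 matches, of which 9 began 35 to 79 bases upstream and the match of Ifi205 began 134 bases upstream. Ifi205 had a further match 23 bases past the start site. Of all promoters, 0.81% had a match in the last 80 bases before the start site. Aim2, Ifi209, Ifi202b and the other of the 2 Ifi203 entries had no ISRE core match. Ifi202b was the only p200 gene with a GAS match, found in 8.30% of all promoters.

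These matches are printed with 10 bases on each side, in gene orientation with the match in capitals, to show how alike the copies are.
Ifi206, chr1:173491339-173491368, minus strand: tgtctctgagGAAATCGAAAgctatgaacc
Ifi214, chr1:173536017-173536046, minus strand: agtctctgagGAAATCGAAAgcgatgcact
Ifi213, chr1:173599326-173599355, minus strand: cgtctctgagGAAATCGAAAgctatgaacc
Ifi208, chr1:173673597-173673626, plus strand: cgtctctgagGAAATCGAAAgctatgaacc
Ifi207, chr1:173741831-173741860, minus strand: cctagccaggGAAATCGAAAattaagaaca
Mndal site 1, chr1:173879993-173880022, minus strand: ttttgagtcaTTTCTCTTTCtactcaaaac
Mndal site 2, chr1:173880204-173880233, minus strand: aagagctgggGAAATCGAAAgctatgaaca
Ifi211, chr1:173913064-173913093, minus strand: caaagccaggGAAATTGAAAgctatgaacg
Ifi203, chr1:173942508-173942537, minus strand: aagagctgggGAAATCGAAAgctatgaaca
Ifi205, chr1:174031870-174031899, minus strand: ccaggccaggGAAATTGAAAgctatgaaca

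GAAATCGAAA made up 7 of these matches, and it occurred in 16 of all 32851 promoters, 7 of them of p200 genes. GAAATTGAAA made up the matches of Ifi211 and Ifi205, and the remaining match, in Mndal, was on the opposite strand. The bases next to the core were also shared, as they were identical in Ifi213 and Ifi208 and in Ifi203 and the second Mndal site. Copies made by duplication are not independent, so the number of promoters with a match is a description. CpG dinucleotides were few in these promoters, with a median of 2 in 300 bases against 7 in all promoters of the table. In 8 of the 14 entries fewer than 50% of the 32-base words were found at a single place in the genome, against all words in the Aim2 and Ifi207 promoters. No listed region of either mark overlapped any of these promoters, the nearest being the upstream Aim2 region. A motif match is not evidence that a factor binds there.

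**Figure D4:**
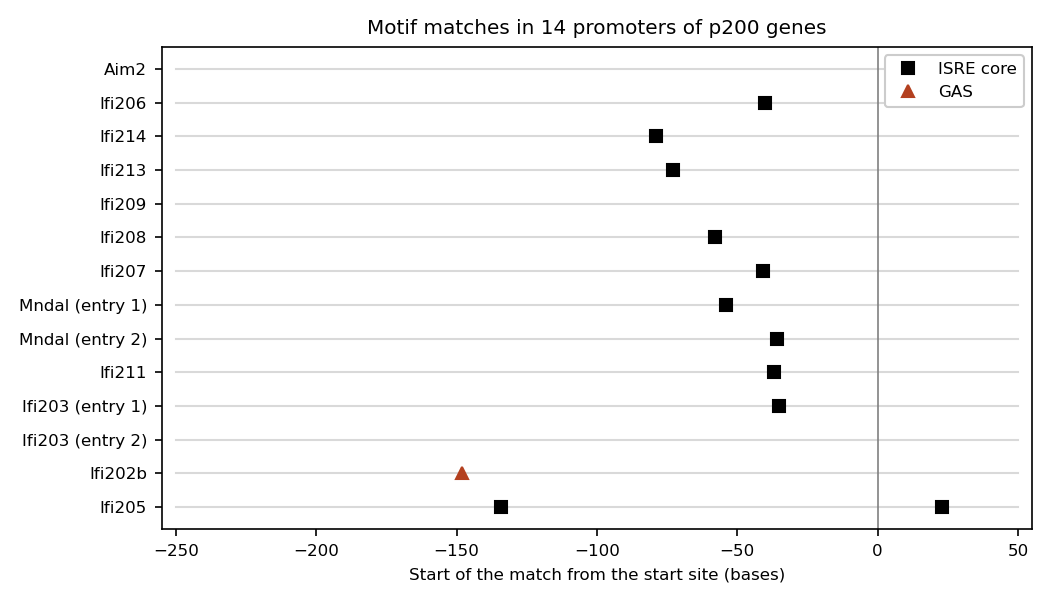
Start of each ISRE core (squares) and GAS (triangle) match, in bases from the start site, in 14 promoter entries of 12 p200 genes. Most ISRE core matches stand between 35 and 79 bases before the start site, and the Aim2 promoter holds none.

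The pathways that p200 proteins act in were compared in the same lists, with a gene counted when a region lay in its body or within 5 kb of a start site. Of 17 inflammasome genes, 2 had a B6-enriched H3K4me3 region (Nlrp3 and Nlrp1b), 1 a NOD-enriched H3K4me3 region (Naip1), 1 a B6-enriched H3K27ac region (Nlrp3) and 2 a NOD-enriched H3K27ac region (Naip1 and Nek7). In the order given, these are 11.8%, 5.88%, 5.88% and 11.8% of the list. The shares of all protein-coding genes were higher in each case, at 16.5%, 24.4%, 14.5% and 16.5%. Nlrp3 encodes another inflammasome sensor, and its H3K4me3 region, 12.5 kb from a start site, had 31 tags in B6 and 8 in NOD, 5.96-fold higher in B6 (2.68 to 15). Pycard, Casp1, Gsdmd, Il1b and Il18, which encode the adaptor, protease, pore and cytokines downstream of AIM2, had no listed region. Nlrp1b and Naip1 belong to gene families with near-identical copies, and how much of the sequence of their regions occurs elsewhere was not measured.

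Of 20 genes of cytosolic nucleic acid sensing, 3 had a B6-enriched H3K4me3 region (Lrrfip1, Ifih1 and Ddx58). A NOD-enriched H3K4me3 region was listed for 4 (Trex1, Mavs, Rnaseh2a and Rnaseh2b). A B6-enriched H3K27ac region was listed for 0 and a NOD-enriched one for 1 (Mavs). The share of the 20 genes was below that of all protein-coding genes in each case. Among all protein-coding genes the shares were 16.5%, 24.4%, 14.5% and 16.5%, in the order given. Mavs, the mitochondrial adaptor of the RNA sensors, had both NOD-enriched marks about 1 kb from a start site, with 52 H3K4me3 tags in NOD against 1 in B6 (ratio 33.8, 5.81 to 1361). The RNA sensor genes Ifih1 and Ddx58 had their B6-enriched regions in the gene body, 29.2 and 19.0 kb from a start site. Cgas and Sting1, the DNA sensing route that Ifi204 has been tied to, had none.

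Of 26 genes of the interferon response, 4 had a B6-enriched H3K4me3 region (Jak1, Irf8, Oas2 and Oasl1) and 5 a NOD-enriched one, among them Stat2, Irf9, Irf8 and Isg15. A B6-enriched H3K27ac region was listed for 4 (Jak2, Tyk2, Stat2 and Oasl1) and a NOD-enriched one for 3 (Ifnar1, Jak2 and Oas1a). In the order given, these are 15.4%, 19.2%, 15.4% and 11.5% of the list, against 16.5%, 24.4%, 14.5% and 16.5% of all protein-coding genes. Irf9, the DNA-binding subunit of the factor ISGF3 that binds ISRE motifs, had a NOD-enriched H3K4me3 region 0.131 kb from a start site with 62 tags in NOD and 9 in B6, 4.48-fold higher in NOD (2.21 to 10.3). Its partner Stat2 had a NOD-enriched H3K4me3 region 12.9 kb from a start site, with 20 tags in NOD and 0 in B6, and a B6-enriched H3K27ac region 1.84 kb from a start site that scored 11.8. Irf8, an interferon-induced factor, had a NOD-enriched H3K4me3 region at its start site with 76 tags in NOD and 4 in B6 (12.4-fold, 4.63 to 46.5) and 2 weaker B6-enriched regions. An ISRE core match was found in the promoter of 9 of the 21 interferon response genes in the promoter table, 2 of 16 nucleic acid sensing genes and 0 of 16 inflammasome genes, against 9 of 12 p200 genes and 3.99% of all genes of the table. Over the 63 genes of the 3 lists, 9 (14.3%), 10 (15.9%), 5 (7.94%) and 6 (9.52%) had a region in the B6 H3K4me3, NOD H3K4me3, B6 H3K27ac and NOD H3K27ac lists. Each of these pooled shares was below that of all protein-coding genes, whereas the interferon list alone was slightly above it for B6-enriched H3K27ac.

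**Figure D5:**
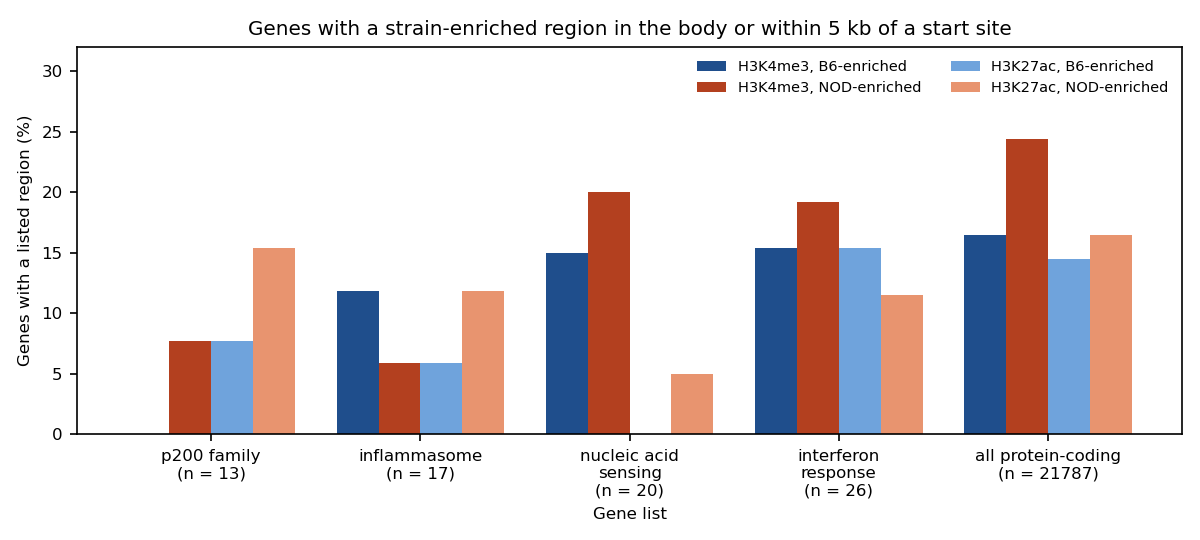
Share of genes with a listed region over the body or up to 5 kb from a start site, for the p200 family, 3 pathway lists and all 21787 protein-coding genes, with 1 bar for each list of regions. The p200 family holds 13 genes, so 1 gene is 7.69% of it. Its 4 bars stand at 0 to 15.4%, each below the bar of the same list for all protein-coding genes (14.5 to 24.4%). In both H3K27ac lists this gap is smaller than 1 gene.

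The labelled cell type was checked by its markers, as far as lists of differences allow. Of 8 ES cell marker genes, 5 had a NOD-enriched H3K4me3 region (Pou5f1, Sox2, Zfp42, Esrrb and Tfcp2l1) and 2 a B6-enriched one (Esrrb and Tfcp2l1). These are 62.5% and 25% of the list, against 24.4% and 16.5% of all protein-coding genes. The study reports, from genome browser tracks, similar enrichment of both marks at the Pou5f1 promoter in B6 and NOD. The listed Pou5f1 region lay 1.7 kb from a start site, with 110 tags in NOD and 0 in B6. Of 7 genes of differentiating cells, 4 (57.1%) had a NOD-enriched and 1 (14.3%) a B6-enriched H3K4me3 region. Of 4 fibroblast genes 2 (50%) had a B6-enriched H3K4me3 region, and of 3 immune cell genes Spi1 had a B6-enriched and Cd68 a NOD-enriched one. Ptprc, the general leukocyte marker, had no listed region. By H3K27ac, none of the ES cell, fibroblast or immune cell genes had a listed region, and 1 gene of differentiating cells, Nes, had a NOD-enriched one. Of all protein-coding genes, 14.5% had a B6-enriched and 16.5% a NOD-enriched H3K27ac region, so these short lists would hold few. No marker level can be read from these lists, and the part of other cells in the regions of the cluster was not tested.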

How the data were processed

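ChIP-Seq of H3K4me3 and H3K27ac was analysed in B6 and NOD ES cells with 1 library per strain and mark, and samples were grouped by the strain and mark in the labels. According to the study's methods, reads were mapped to mm10 with bowtie2 and analysed with HOMER 4.8, whereas the labels list mm9 and STAR 2.2.0c. Regions lay within the GRCm38 chromosome lengths, and 89.8% of the H3K27ac regions with a RefSeq transcript had the deposited distance to its start site within 10 bp, so GRCm38 coordinates were used.

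Per the file headers, the authors called H3K4me3 peaks of 500 bp with at least 8 tags and 4-fold more tags than in the other strain. The deposited signal is scaled to 10000000 tags. Tags per region are a whole-number count as deposited in the B6 list and are scaled in the NOD list, and 100% of the scaled values gave whole tags within 0.1 on rescaling by the header totals of 14791364 (B6) and 22750449 (NOD). The deposited fold uses a small positive value where the other strain had no tags, and a floor of 3 tags and the exact lower limit of the ratio were used here instead. The deposited score of an H3K27ac region, from the HOMER super enhancer pipeline, has no stated scale. The deposited p-values of the regions were not used.

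The members and gene lists were chosen with earlier results of these data known. Named in the text are the 6 genes, each gene of the stretch with a region, all H3K4me3 regions (15 or fewer) and the H3K27ac regions in the stretch, and examples from the pathway lists chosen after their values were seen. The region of 1 pathway gene is not reported here. No test was possible without replicates. Intervals are exact Poisson, binomial and conditional binomial ones at 95%, and cover counting error only. Copies of 32-base words were counted on both strands of GRCm38. Scripts were tested on simulated data. Python 3 with numpy, pandas and scipy was used. Alternatives changed the definition of the stretch, the tag, fold and score minimum and the window around genes.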

Additional observations from a re-analysis of the deposited data

How the results depend on the processing

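With the stretch widened by 100 kb, 2 NOD-enriched H3K27ac regions were counted rather than 1. Kept to p200 gene bodies and 5 kb around their start sites, the stretch had 0 B6-enriched and 2 NOD-enriched H3K4me3 regions, a B6 share of 0%. With an H3K27ac score at or above the list's median, or with at least 50% of words found at a single place in the genome, 0 NOD-enriched H3K27ac regions were left and the B6 share was 100%, since the Mndal region was lost. Ranked by score per base, the Aim2 intron region moved from 2383 to 706 and the Mndal region from 3103 to 1363. The number of the 63 pathway genes with a region rose with a window of 20 kb. It was then 14 and 17 (B6 and NOD H3K4me3) and 11 and 13 (B6 and NOD H3K27ac). Among all protein-coding genes the shares at 20 kb were 23.7%, 34.1%, 21.6% and 23.8%. Within 1 kb of a start site the pathway genes fell to 2 and 3 (H3K4me3) and 1 and 4 (H3K27ac). There the shares of all protein-coding genes were 5.31%, 8.53%, 4.02% and 6.89%. At both windows each share of the 63 genes was below that of all protein-coding genes. The other alternatives moved no value by more than 1.5 times or beyond its counting interval. For the minimum of 8-fold this holds with the deposited folds only, which use a small positive value for 0 tags. With the floor of 3 tags used here, no NOD-enriched H3K4me3 region of the cluster reached 8-fold (4.12 to 6.50). The B6-enriched one did, at 10.8. No paired analysis was possible because each strain and mark had 1 library. Depth limits the H3K4me3 values, which rest on 19 to 30 tags in the enriched strain, and a few tags in the other strain would lower the folds. Counts of 1 to 4 regions per list allow no statement on a difference in number.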
